A study of Drosophila melanogaster with 14 samples.

Results

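The larval testis of *Drosophila melanogaster* is filled with germline cells that have not yet completed spermatogenesis. Germline stem cells give rise to spermatogonia (SpG), which divide by mitosis, enter meiosis as spermatocytes (SpCs) and there transcribe a large programme of testis-specific genes, many of whose mRNAs are stored until spermatids are built. This description covers the transcriptome of control testes alone, that is the 3 RNA-seq libraries of *bam-Gal4-VP16* males out of the 14 libraries of the series, which otherwise hold 3 libraries of testes with both lamins knocked down and 8 DamID libraries. Each control library was made from poly(A)+ RNA of about 200 pooled testes of larvae in the last instar, sequenced as 150-nt paired reads. The strain carries the driver, which is active in late SpG and SpCs, without any RNAi transgene. The libraries thus have 1 genotype and 1 stage, and testes without the driver were not analysed here. As each library is a pool of whole testes, somatic cells and attached tissue are part of it, and a lower number of cells of a type cannot be told apart from less RNA per cell. There is only 1 group, so that values are given as a description with the spread of the 3 libraries and without tests.

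Levels are given in TPM, the unit the authors deposited for each of 13776 genes, in which reads are divided by the effective length of the gene and scaled to the same total in each library. Expected reads, the part assigned to genes, numbered 6853903, 5651960 and 6013633 in the 3 libraries. This is below the number of sequenced reads per sample that the paper states. With these assigned reads, 1 read of a gene with the median effective length was worth 0.106, 0.133 and 0.117 TPM. Values under 1 TPM thus rest on a few reads. Sperm genes were present at high levels in each library, whereas the early germline genes had a median of only 26.4 TPM. Of the 9 genes listed for accessory gland and female tissue, none had a mean over 10 TPM, the highest being *Acp36DE* with 8.81 ± 2.51 TPM. The early germline genes *bam*, *zpg* and *nanos* were also under 10 TPM. The libraries were not uniform. Library 3 had higher levels of late spermatogenesis genes and lower levels of early germline genes than libraries 1 and 2, and library 1 nearly lacked the salivary glue genes that were present in libraries 2 and 3. For some results, values with 1 library left out are given as well.

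Of the 13776 genes, 10187 (73.9%) had a mean level over 1 TPM and 9697 exceeded 1 TPM in each library. No read was assigned to 890 genes in any library. The median of the expressed genes was 23.9 TPM, with quartiles of 6.34 and 86.1 TPM. Between 100 and 1000 TPM lay 2178 genes, which together held 55.6% of all TPM, and 126 genes over 1000 TPM held 25.5%. The 122 highest genes made up 25% of all TPM, and 583 genes made up 50%. The 100 highest genes held 22.5%, 21.3% and 24.4% of TPM in libraries 1, 2 and 3 (22.8% ± 1.54, SD, n = 3). Their membership was similar, as 83 genes were among the 100 highest in every library and 117 in at least 1.

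Genes of the mitochondrial genome led the ranking together with short nuclear genes, most of which carry no name beyond their CG number. Among the 30 highest genes, 15 were CG genes, 6 were sperm proteins and 5 were mitochondrial. The highest gene was *mt:CoIII*, subunit III of cytochrome c oxidase, with 9709, 8429 and 8608 TPM. *mt:ATPase6* followed with a mean of 6275 ± 189 TPM (SD, n = 3), *mt:CoI* with 6206 ± 482 and *mt:Cyt-b* with 5357 ± 336. The highest nuclear gene was *CG12699* on 2R with 5353, 5803 and 6477 TPM, highest in library 3. *CG31740* on 2L had 5083 ± 358 TPM, *CG31226* on 3R 4544 ± 874 and *CG17376* on 2L 4410 ± 451. These 3 nuclear genes were also highest in library 3. The first named nuclear genes were *RpL41*, a very small ribosomal protein, with 4486 ± 479 TPM, and *Obp99b*, which belongs to the odorant binding protein family, with 4074 ± 1375 TPM. *Obp99b* was uneven, with 5652 TPM in library 1 against 3132 and 3437 in the others.

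**Figure D1:**
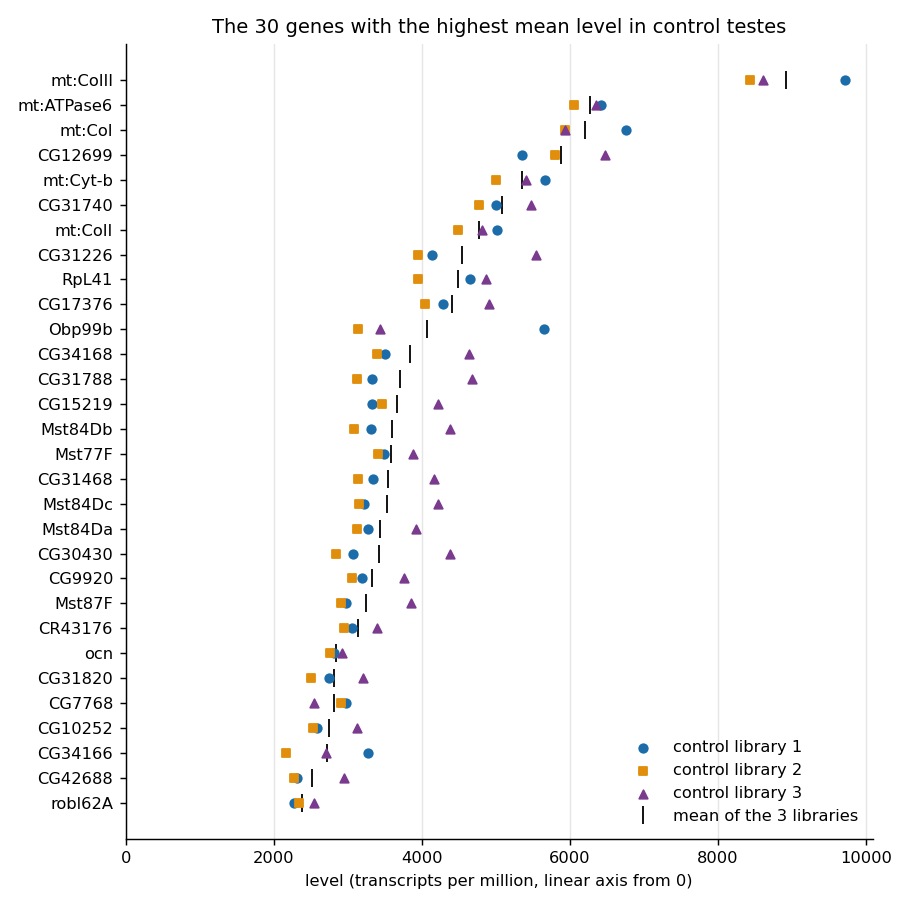
Level in TPM (linear axis from 0) of the 30 genes with the highest mean, with 1 symbol per control library and a bar for the mean of the 3. Most of the nuclear genes lie to the right in library 3, whereas the mitochondrial genes and *Obp99b* are highest in library 1.

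The genes that build the sperm tail and the sperm chromatin were close behind. *Mst84Db*, a member of a family of cysteine-rich sperm tail proteins, had 3319, 3086 and 4382 TPM. Its neighbours *Mst84Dc* and *Mst84Da* had means of 3530 ± 602 and 3440 ± 421 TPM, and *Mst87F* of the same family had 3243 ± 529. *Mst77F*, which encodes a linker histone-like protein of the sperm nucleus, had 3483, 3406 and 3879 TPM. *ocn*, known for its abundance in the testis, had 2834 ± 85.9 TPM with hardly any difference between the libraries. The dynein light chain gene *robl62A* ranked at 30 with 2387 ± 139 TPM. Each of these genes was highest in library 3.

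The rank of a gene depended on the measure, because TPM divides reads by the effective length, which is far below the full length in short genes. The median length of the 100 highest genes was 684 bp, against 1617 bp for all expressed genes, and 35 of the 100 were shorter than 600 bp. The same 100 genes took 12.8% of the expected reads. When genes were ranked by reads, 51 of the 100 highest were also among the 100 highest by TPM. An extreme case was *CR43176*, a pseudogene of the Y chromosome with a length of 237 bp, whose 3135 ± 233 TPM rested on 1517, 1140 and 1299 reads. By reads, *mt:CoI* stood first, followed by *Ubi-p63E*, a polyubiquitin gene, and by the larval storage protein genes *Lsp2* and *Lsp1gamma*. *S-Lap1*, *Fbp1*, *loopin-1* and *Hsp83* were also among the first 12 by reads. The genes named by reads were chosen after their values were seen.

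Gene classes were formed from gene symbols. Genes with only a CG number held 44.3%, 44.4% and 47.9% of TPM in the 3 libraries. They were 43.1% of all genes and 40.4% of the expressed genes, but 49.7% of the 2304 genes over 100 TPM. Of the 126 genes over 1000 TPM, 54 were CG genes, a share no higher than among all genes. The 84 cytosolic ribosomal protein genes held 6.94%, 6.67% and 5.59% of TPM and all of them exceeded 1 TPM. Of 41 sperm protein genes 37 were expressed and 33 exceeded 100 TPM, and they held 4.30%, 4.32% and 5.12% of TPM. The 13 genes of the mitochondrial genome held 4.11% ± 0.246 (SD, n = 3), and 97 nuclear genes of oxidative phosphorylation, all of them expressed, held 2.80% ± 0.0232. The 49 proteasome genes held 1.15% and 53 translation factor genes 1.04%. Tubulins and microtubule motors held 0.998%, led by *robl62A*, by *betaTub85D*, the testis beta-tubulin (1507 ± 133 TPM), and by *alphaTub84B* (1420 ± 48.7 TPM). Chaperones held 0.885%, led by the small heat shock gene *Hsp26* (2029, 2022 and 1407 TPM) and by *Hsp83* (987 ± 115 TPM). By reads instead of TPM the shares of the classes of short genes were lower. The ribosomal protein genes then had 2.33%, sperm proteins 3.49% and CG genes 36.5%, while the 8 larval fat body protein genes had 1.75% in place of 0.705%.

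**Figure D2:**
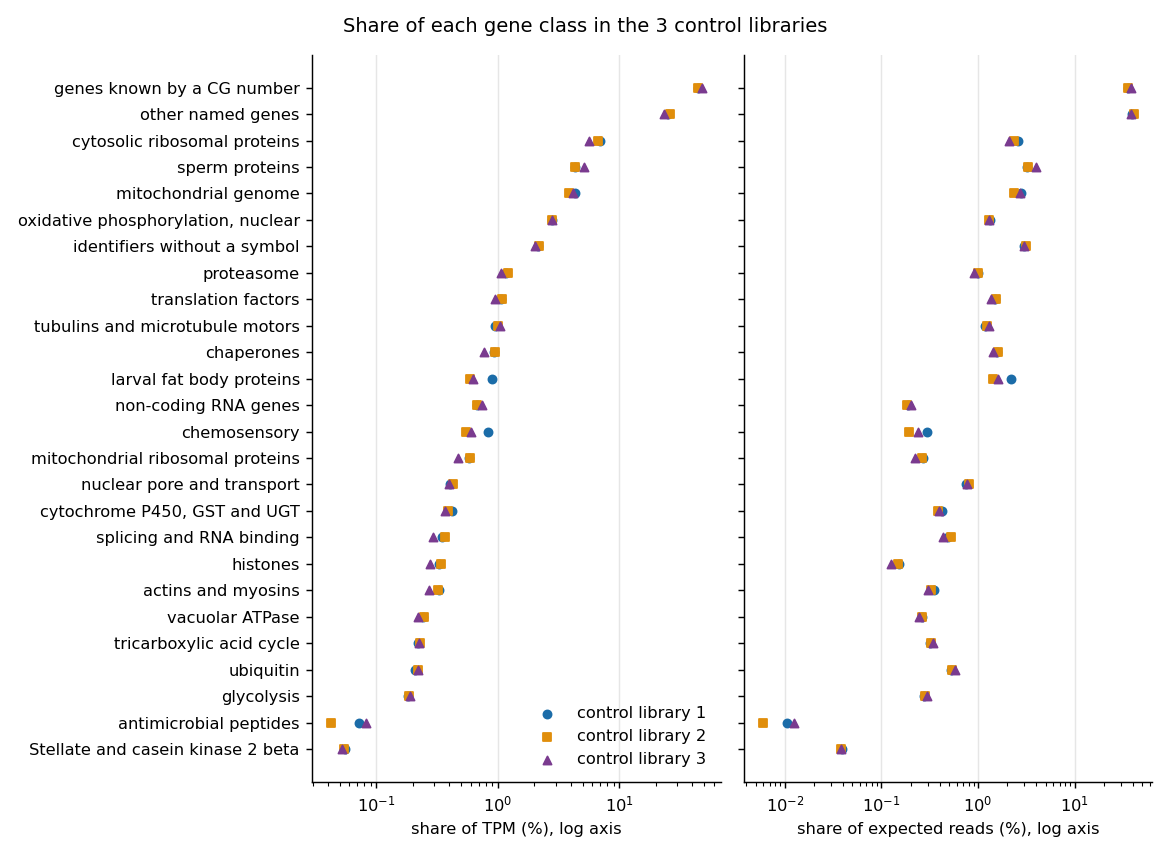
Share of each gene class in the 3 control libraries as percent of TPM (left) and percent of expected reads (right), both on log axes, for the classes with more than 0.05% of TPM. Antimicrobial, fat body and chemosensory genes differ by the largest factors between the libraries, and ribosomal proteins stand lower on the right than on the left.

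Several gene families known from other tissues had few expressed members. Of 228 chemosensory genes 53 exceeded 1 TPM, and 4 exceeded 100 TPM, all of them odorant binding proteins. *Obp44a* had 1676 ± 121 TPM and *Obp99a* 315 ± 55.0. Of 122 cuticle protein genes 30 exceeded 1 TPM, and of 28 gut protease genes 3. Cytochrome P450, GST and UGT genes were more often expressed, 89 of 153, and *GstS1* reached 1377 ± 102 TPM. Of 37 histone genes 22 exceeded 1 TPM, but most replication histone mRNAs lack a poly(A) tail, and the repeated copies share reads, so that their values are uncertain.

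Testis-specific copies of general genes were in many cases higher than the general copy. Such pairs were listed after the class leaders had been seen, and 37 of 38 could be matched. The germline or testis copy was higher than the general copy in every library in 30 pairs, lower in every library in 5, and mixed in 2. Of the 37 testis copies 34 exceeded 100 TPM, against 2304 of all 13776 genes. As high class leaders were known when the pairs were listed, these counts follow in part from that choice. *Cyt-c-d*, the cytochrome c of the male germline, had 880, 888 and 1033 TPM against a mean of 75.3 ± 7.84 for *Cyt-c-p*, a ratio of 12.5 ± 1.79 (SD, n = 3). In the respiratory chain *COX4L* was 8.96-fold and *COX7CL* 8.93-fold higher than *COX4* and *COX7C*, with the highest ratio in library 3 for both. In glycolysis the hexokinase *Hex-t2* was 30.4 ± 7.88-fold higher than *Hex-A*, and *Pglym87* was 6.74 ± 2.34-fold higher than *Pglym78*. *robl62A* was 10.0 ± 0.783-fold higher than *robl*, and *fzo*, the mitochondrial fusion factor of spermatids, was 5.77 ± 0.431-fold higher than *Marf*.

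Protein synthesis and degradation showed the same pattern to different degrees. The proteasome subunit gene *Prosalpha1R* had 883 ± 38.1 TPM against 95.6 ± 25.9 (72.8, 124 and 90.1) for *Prosalpha1*. The expected reads of *Prosalpha1R* were not whole numbers in any library, as when reads are divided between entries. This comparison may therefore depend on the estimate. *Rpt3R* was 6.06 ± 1.01-fold higher than *Rpt3* and *Rpt6R* 2.32 ± 0.234-fold higher than *Rpt6*. *eIF4E3*, the cap-binding protein required in male meiosis, had 868 ± 22.1 TPM against 403 ± 40.9 for *eIF4E1*, and *eIF4G2* was 6.51 ± 1.28-fold higher than *eIF4G1*. The general copy was higher in all libraries for *Prosalpha3*, *Prosbeta2*, *Taf6*, *RpS5a* and *RpS19a*. The ratio of the testis copy to the general copy was 0.352 ± 0.0380 for *Prosalpha3T*, 0.448 ± 0.122 for *Prosbeta2R1*, 0.887 ± 0.110 for *mia*, 0.670 ± 0.0542 for *RpS5b* and 0.927 ± 0.0487 for *RpS19b*. *Ran-like* and *Prosbeta4R1* exceeded the general copy in library 3 alone. Of the 32 general genes in these pairs 12 are X-linked, and of the 37 testis copies 2 are, *Prosbeta2R1* and *TrxT*, while the X holds 15.4% of all genes. *TrxT* was 8.15 ± 1.04-fold higher than *Trx2*. The counts concern pairs chosen by hand and were not tested.

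The germline lists differed widely in level. Their medians were 26.4 TPM for early germline genes, 78.9 for the testis complex tMAC, 141 for the testis forms of general transcription factor subunits (testis TAFs), 133 for meiosis and testis bromodomain genes, 1271 for the sperm tail and sperm chromatin, 160 for *cup* and *comet* genes and 10.3 for Y-linked fertility genes. The 7 early germline genes had a summed level of 210, 213 and 153 TPM. *stil* was the highest of them with 83.1 ± 4.77 TPM, and *vas*, the germline RNA helicase, had 41.0, 35.5 and 18.3 TPM. *aub*, a protein of the piRNA pathway, had 34.5, 32.4 and 18.2 TPM. *bam*, the switch from mitotic division to differentiation, had 9.07, 11.0 and 6.51 TPM, and *nanos* 5.11 ± 0.945. In each of these genes library 3 was lowest. The tMAC, a testis complex of Aly and its partners that activates the SpC programme, was represented by 7 genes, all at moderate levels. *aly* had 51.8, 56.1 and 33.3 TPM, *comr* 16.3 ± 2.11, *topi* 54.5 ± 7.76 and *wuc* 171, 159 and 123. The 5 testis TAFs ranged from 20.6 TPM for *mia* to 344 for *Taf12L*, with *can* at 32.7 ± 4.18 and *sa* at 149 ± 17.0.

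The 11 genes of meiosis and of SpC gene control ranged widely, from 4.80 ± 1.06 TPM for *tef* and 14.6 ± 2.90 for *SA2* upward. *bol*, a translational activator of meiotic entry, had 455, 523 and 508 TPM. Its target *twe*, the meiotic Cdc25 phosphatase, had 133 ± 6.19 TPM. *fest*, which acts on the translation of cyclin B, had 433 ± 48.2 TPM. *Rbp4*, which represses cyclin B translation in SpCs, had 198, 214 and 125 TPM. The testis bromodomain genes *tbrd-1*, *tbrd-2* and *tbrd-3* had 182 ± 37.0, 111 ± 19.9 and 70.3 ± 14.2 TPM. *kmg*, which blocks activation at cryptic promoters, had 39.1 ± 9.74 TPM. Cyclins and their kinases, listed after their values were seen, were led by *Cdk1* (162, 147 and 97.9 TPM) and *CycB* (125 TPM), and 18 of 19 exceeded 1 TPM.

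The sperm genes had the highest median of the lists. All 22 genes of the sperm tail and sperm chromatin exceeded 100 TPM, with a median of 1271 TPM and a sum of 34783, 34273 and 41627 TPM. The protamines *ProtA* and *ProtB*, which replace histones in the sperm nucleus, had 867 ± 93.3 and 1344 ± 134 TPM, although larval testes hold no mature sperm. The spermatid HMG genes *tHMG1* and *tHMG2* had 2136 ± 218 and 2027 ± 227 TPM, *dj* of the sperm tail 1198 ± 84.9 and *fzo* 198 ± 9.96. The 7 sperm leucyl aminopeptidase genes, major proteins of the sperm, ranged from 175 TPM for *S-Lap5* to 1980 ± 156 for *S-Lap1*. All 15 *cup* and *comet* genes, known in the adult testis for transcription in spermatids after meiosis, were also present in these larval testes. *soti* had 801, 785 and 977 TPM and *sowi* 797, 835 and 953, and the lowest, *p-cup* on the X, had 41.3 ± 3.10. Sequences of *Mst98Ca* and *Mst98Cb* and of the *S-Lap* genes are related, and the division of reads between such copies depends on the estimate.

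Of 11 genes placed on the Y, 10 exceeded 1 TPM, with a median of 20.1 TPM, and *CR43176* was by far the highest. Of the 4 matched Y-linked fertility genes, *ARY* had 59.9, 57.3 and 68.7 TPM, *ORY* 10.9 ± 4.08, *Ppr-Y* 9.61 ± 3.15 and *kl-2*, a very long dynein heavy chain gene active in SpCs, 3.55 ± 0.415 TPM. The other 5 Y-linked fertility genes of the list had no matching entry in the gene table. *Ssl* and *CkIIbeta2*, autosomal relatives of the X-linked casein kinase 2 beta gene, had 126 ± 2.92 and 228 ± 10.7 TPM, against 84.5 ± 14.9 for *CkIIbeta*.

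The genes listed for the somatic cells of the testis were mostly at low levels, but the lists are short and do not stand for all genes of these cells. The 12 genes of cyst and hub cells had a summed level of 128, 141 and 110 TPM and a median of 5.87 TPM, and all exceeded 1 TPM. *chinmo* had 45.5 ± 8.70 TPM and *eya*, which marks later cyst cells, 22.2 ± 3.97. The early cyst cell factors *zfh1* and *tj* had 9.79 ± 0.515 and 1.53 ± 0.324 TPM, and the hub signal *upd1* 5.41 ± 0.0190. *dsx* and *Sox100B*, used as marks of the terminal epithelium, had 2.35 ± 0.253 and 1.55 ± 0.0792 TPM. Several of these genes, such as *chinmo* and *Stat92E*, are also expressed in germline cells, so that their levels are not those of somatic cells alone.

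**Figure D3:**
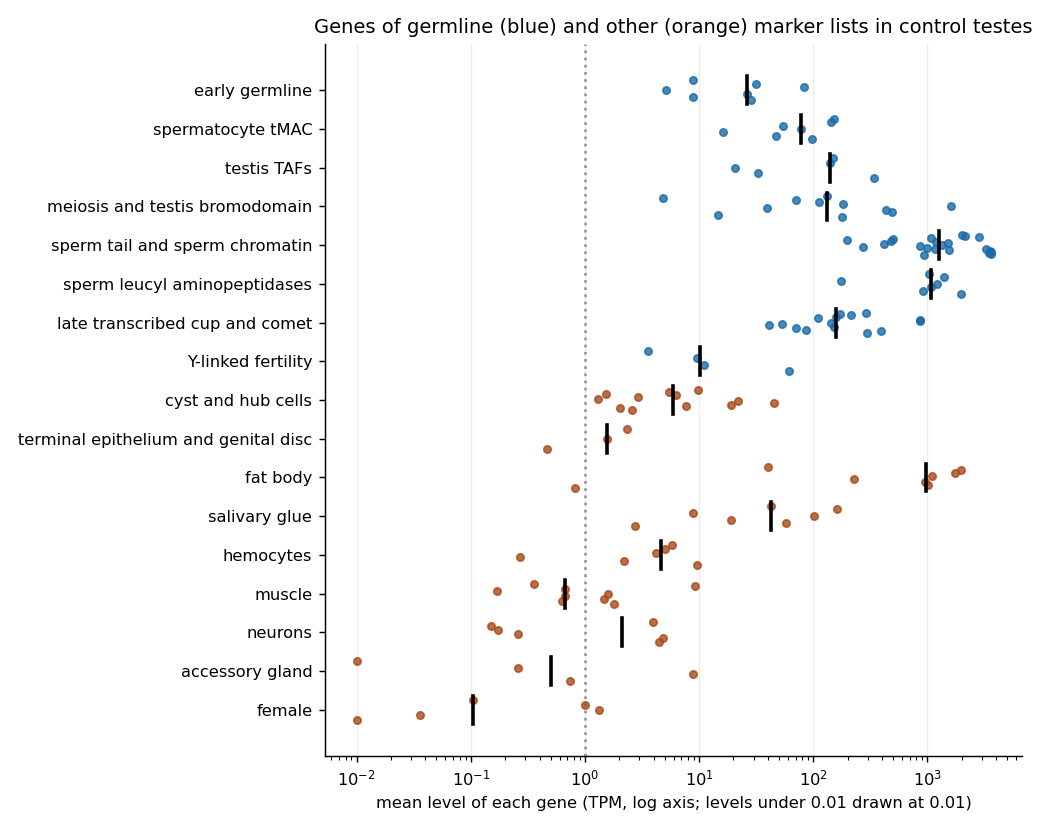
Mean level in control testes (TPM, log axis) of each gene of the germline lists (blue) and of the lists for somatic and foreign tissues (orange), with the median of each list as a black bar and 1 TPM as a dotted line. Late sperm genes and fat body genes lie near 1000 TPM, whereas most genes of hemocytes, muscle, neurons, accessory glands and female tissue lie under 10 TPM.

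Of the lists for other tissues, that of the fat body, the larval storage organ in which the testis is embedded, had the highest sum. The larval serum protein genes *Lsp2* and *Lsp1gamma* had 2277, 1637 and 1946 TPM and 2031, 1593 and 1652 TPM. *Lsp1beta* had 1101 ± 191 TPM, and *Fbp1*, the receptor for the uptake of storage proteins, had 1479, 658 and 877 TPM. *Fbp2* had 1383, 693 and 808 TPM. All 7 fat body genes over 10 TPM were highest in library 1, and the sum of the list was 8904, 5955 and 6284 TPM. *Lsp1alpha* on the X was the most uneven, with 392, 228 and 60.7 TPM. The odorant binding protein genes summed to 8183, 5271 and 5902 TPM, of which *Obp99b* took the largest part and was, like the fat body genes, highest in library 1. The lipoprotein gene *apolpp* had 40.6 ± 9.70 TPM, and *Apoltp* 0.815 ± 0.172 TPM.

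Genes of other tissues were at lower levels. The hemocyte genes *Hml* and *He* had 2.19 ± 1.02 and 9.57 ± 3.50 TPM, and none of the 6 hemocyte genes had a mean over 10 TPM. The muscle genes *Mhc* and *Mlc2* had 1.46 ± 0.450 and 1.59 ± 0.448 TPM. The neuronal gene *elav* had 0.493, 0.141 and 0.151 TPM, and the highest of 6 neuronal genes, *brp*, 4.87 ± 0.471. Of the 4 accessory gland genes, *Acp36DE* alone had a mean over 1 TPM, with 211, 172 and 111 reads, and the sex peptide gene *SP* had no read in any library, which allows up to 3 reads per library. Of the yolk protein genes, *Yp3* had 10, 9 and 12 reads (1.34 ± 0.193 TPM), *Yp2* 1 read in all and *Yp1* none. The chorion gene *Cp15*, from a family collected after values were seen, was higher than all of these, with 31.2, 40.4 and 40.1 TPM.

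The libraries were alike in their overall profile. Spearman's rho over the 10187 expressed genes was 0.990 between libraries 1 and 2, 0.987 between 1 and 3 and 0.987 between 2 and 3, as correlations across genes that share length and composition. The biological coefficient of variation, the spread of a gene's true level between libraries beyond counting noise, was 12.8% over 9801 genes in edgeR. Without library 3 it was 7.48%, while it was 15.1% without library 1 and 14.1% without library 2. The median coefficient of variation (CV, SD over mean) of the 6830 genes over 10 TPM was 12.4%, and it was lower at high levels, with 8.95% between 100 and 1000 TPM and 21.8% between 1 and 10 TPM. Of the 6830 genes 27 had a CV over 0.5 and 19.1% a CV over 0.2. In library 1, 9 genes were more than 2-fold above and 12 more than 2-fold below the mean of the other libraries, against 3 and 15 in library 2 and 13 and 13 in library 3.

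Relative to all genes, late genes of spermatogenesis were higher in library 3. Early germline genes were lower, as were several groups that are not specific to the germline. The median gene over 10 TPM was lower in library 3 than in the mean of the others by a log2 ratio of -0.19, whereas it was higher by 0.13 in library 2, so that ratios are given relative to this shift. On that scale the median of the 22 sperm tail and chromatin genes was 0.41 higher in library 3, with all 22 above the shift, and that of the 15 *cup* and *comet* genes was 0.39 higher, with all 15 above. The 7 sperm aminopeptidases were 0.36 higher, again all of them. In the other direction, the medians of 4 early germline genes over 10 TPM, 7 tMAC genes and 5 testis TAFs were -0.37, -0.20 and -0.13, and of the tMAC and TAF genes none was above the shift. Low medians in library 3 were also found in groups that are not specific to the germline, though these are not limited to somatic cells. The 3 cyst and hub cell genes over 10 TPM lay at -0.22, with none above the shift, 7 heat shock genes at -0.34, 6 housekeeping genes at -0.20, and cytosolic and mitochondrial ribosomal protein genes at -0.17 and -0.21. Their part in the difference of the early germline genes was not tested. The genes of the mitochondrial genome went with the late genes in library 3, at 0.28, but were low in library 2, at -0.33. The sum of the sperm tail and chromatin list was 1.21-fold higher in the highest than in the lowest library, and 1.44-fold when libraries were rescaled by the median of ratios of their TPM. For the early germline list these factors were 1.39 and 1.21. Without library 3 the factor in TPM without rescaling was 1.01 for both lists.

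**Figure D4:**
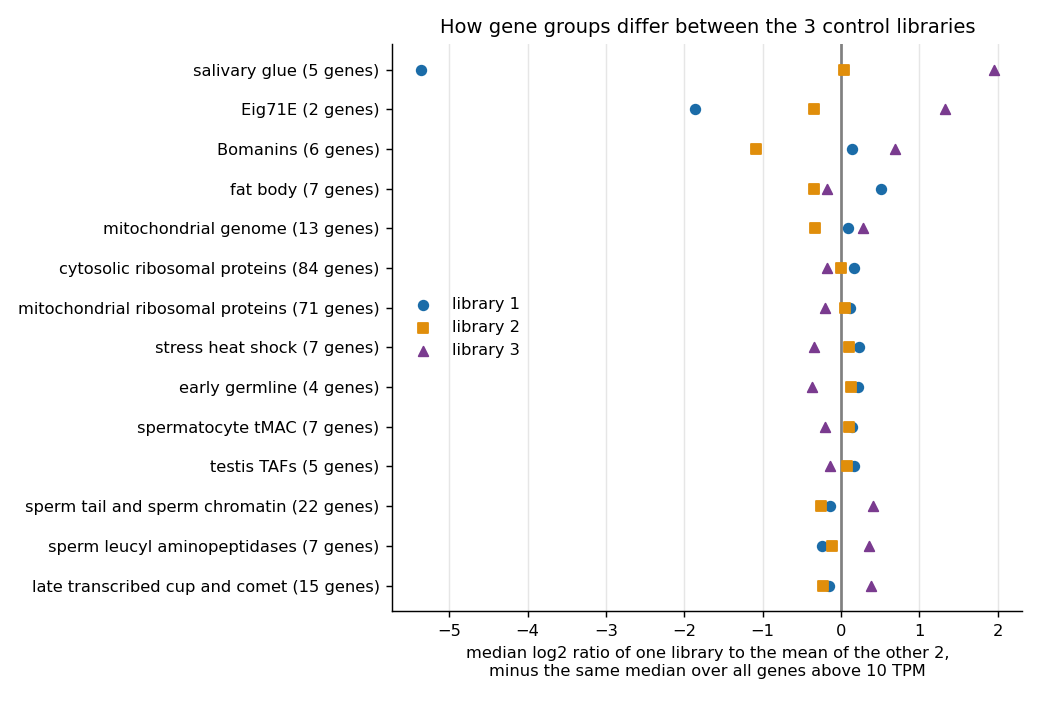
Median log2 ratio of 1 library to the mean of the other 2, relative to the median over all genes above 10 TPM, for gene lists and classes, with 1 symbol per library. The salivary glue genes stand more than 5 log2 units lower in library 1, and late sperm genes are above early germline genes in library 3.

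The most variable genes were those of a gland outside the testis. By CV, 5 of the first 10 genes over 10 TPM were salivary glue genes, which the salivary gland of late larvae makes in large amounts. *Sgs7* had 4.75, 201 and 280 TPM, *Sgs5* 2.48, 109 and 193, *Sgs3* 1.15, 77.9 and 94.4, *Sgs8* 1.95, 41.2 and 84.8, and *Sgs4* 0.551, 18.2 and 38.8. All 5 were thus within a few TPM in library 1, with 2 to 6 reads each, and present in the other libraries, and the sum of all 7 glue genes was 14.9, 463 and 707 TPM. The family was collected after the ranking had been seen. *Eig71Ee*, an ecdysone-induced gene that is also active in this gland, rested on 9, 110 and 212 reads, in the same order. Next to them stood *Cyp4e3*, a cytochrome P450 gene, with 18.4, 31.4 and 93.6 TPM, *Adh*, alcohol dehydrogenase, with 35.9, 9.24 and 12.3 TPM, *Lsp1alpha* and *CG43351*, the last of which rests on 10, 0 and 6 reads.

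Immune-induced peptides varied in yet another order. The Bomanins *BomS3*, *BomS1* and *BomS2*, short secreted peptides of the Toll response, had 342, 182 and 397 TPM, 129, 69.6 and 132 TPM, and 109, 73.7 and 112 TPM. The 6 Bomanin genes over 10 TPM were lowest in library 2, apart from *BomBc1*, which had 11.7, 13.6 and 13.2 TPM. The median log2 ratio of the 6 genes relative to all genes was -1.09 in library 2. The heat shock genes *Hsp26* and *Hsp27* were lowest in library 3, and *Hsp70Aa* had 21.2, 30.1 and 4.36 TPM while its copy *Hsp70Ab* had 0, 0 and 23.5, values that cannot be told apart as these copies are near-identical. The part of salivary gland, fat body and immune genes in the spread of other genes was not tested.

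The X chromosome was expressed at lower levels than the autosomes. Among genes over 1 TPM, the median of 1579 X-linked genes divided by that of 8322 genes on 2L, 2R, 3L and 3R was 0.661, 0.665 and 0.651 in the 3 libraries (0.659 ± 0.00699, SD, n = 3). Males carry a single X, and somatic cells compensate for it by raising its transcription. The ratio was not the same at all levels. At the 10th percentile of expressed genes it was 0.933 ± 0.0138, at the 75th percentile 0.591 ± 0.00737 and at the 99th percentile 0.524 ± 0.0676, and it was lowest there in library 3, at 0.447. The threshold of 1 TPM, common to both sets, holds the low percentiles near each other, so that the gradient over percentiles is in part set by it. The ratio of medians was 0.782 ± 0.0192 when the genes needed over 10 TPM. The ratio of means was 0.554 ± 0.0283. The ratio of medians was 0.708 ± 0.00393 for CG genes and 0.615 ± 0.00522 for other named genes. Chromosome 4 was also low, with a ratio of 0.570 ± 0.0109 from 62 genes.

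The X held 15.4% of all genes, 74.2% of which were expressed, in the range of 71.3% to 76.4% of the 4 autosomal arms. In contrast, 10.5% of X-linked genes exceeded 100 TPM, against 17.0% to 20.1% on the arms, and only 3 of the 126 genes over 1000 TPM were X-linked. The X took 8.99%, 9.18% and 8.40% of TPM. Its 3 highest genes were the non-coding *lncRNA:CR32652* (1410 ± 74.0 TPM), *TrxT*, a testis thioredoxin (1078 ± 30.3 TPM), and *CG1394* (1065 ± 64.4 TPM). Of the autosomal arms 2L was the highest per gene, with 22.1% of TPM from 18.5% of genes. Chromosome 4 was led by *RpS3A* with 882 ± 159 TPM, and the Y by *CR43176* and *FDY* (77.4 ± 12.7 TPM).

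Highly expressed genes were often neighbours. Of 182 genes among the 200 highest that could be placed on a chromosome, 34 (18.7%) had another of them directly beside it, whereas 2.41% of the other placed genes adjoined one of the 200. They formed 15 runs, 3 of them of at least 3 genes. The longest was the *Mst84Da* to *Mst84Dd* cluster on 3R with 4 genes. The other long runs were *CG18449*, *CG2127* and *CG8701* on 2R and *CG1394*, *CG15200* and *CG11106* on the X. Pairs included *ocn* and *janB*, *tHMG1* and *tHMG2*, *ProtA* and *ProtB*, *S-Lap1* and *S-Lap2* and *CG17376* and *CG17377*. Many of these are duplicates of one another, and near-identical neighbours share reads.

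On 2L, the level in control testes was set beside the position of the gene start relative to lamina-associated domains (LADs), the regions of the genome in contact with the nuclear lamina, which the authors determined from merged DamID replicates on the dm3 assembly in SpG of *bam* mutant testes and in SpCs. The supplementary gene table with start positions and expression classes was at hand for 1998 genes of 2L only. Of the genes at 1 TPM or less 59.5% (95% Wilson interval 55.0 to 63.7%) started in LADs of SpCs, and of those between 10 and 100 TPM 15.6% (interval up to 18.6%). The share was higher again over 100 TPM, at 31.1% (26.8 to 35.7%). In LADs of SpG the order was the same, with 52.3% at 1 TPM or less, 15.8% between 10 and 100 TPM and 32.8% over 100 TPM. Over all 1998 genes the share was 32.4% in LADs of SpCs and 30.7% in LADs of SpG. Genes over 100 TPM were thus near the share of all genes. The intervals reflect the number of genes alone, and neighbouring genes lie in the same LADs.

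The genes over 100 TPM differed in this respect between expression classes. Of 140 ubiquitous genes over 100 TPM, 1 started in a LAD of SpCs (0.714%), whereas of 117 SpC-specific genes that depend on Aly 75 did (64.1%, interval 55.1 to 72.2%). Between these lay 113 genes that were neither ubiquitous nor testis-specific, with 39.8% in LADs of SpCs, and 27 testis-specific genes expressed in SpG, with 11.1%. SpC-specific genes independent of Aly were few, with 3 of 12 in LADs of SpCs and 6 of 12 in LADs of SpG. Aly-dependent genes had a median of 155 TPM and ubiquitous genes of 34.0 TPM, but a TPM threshold was part of how the classes were formed. The LADs of SpCs reflect mainly early to mid SpCs, in which DamID labelling was strongest, whereas the RNA is from whole testes. The paper proposes that Aly-dependent genes leave the lamina in mature SpCs but keep marks made earlier, a technical limit of DamID. It cites microscopy in which a cluster with Aly-dependent genes had mostly moved inward in SpCs. These points were not tested here.

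**Figure D5:**
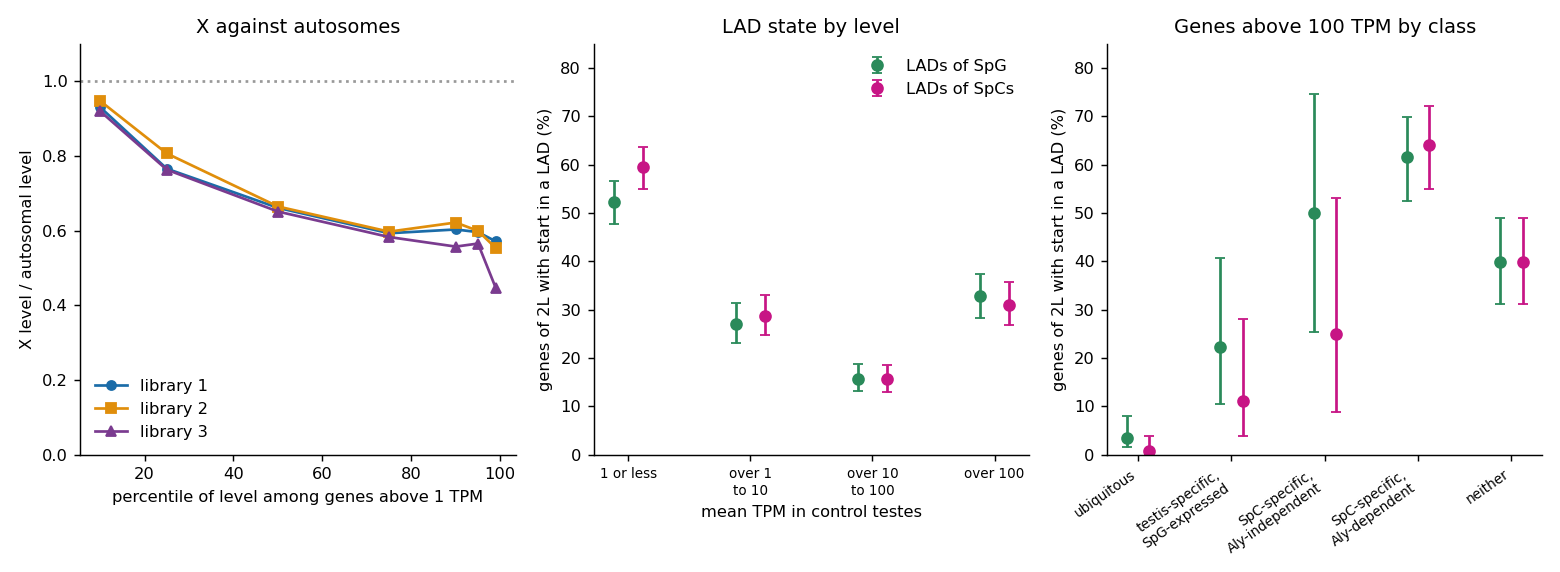
Left, level of X-linked genes divided by that of autosomal genes at percentiles of the genes above 1 TPM, with 1 line per library. Middle and right, percent of genes of 2L that start in a LAD of SpG or SpCs, by level and, for genes above 100 TPM, by expression class, with 95% Wilson intervals. The ratio is nearest to 1 at low percentiles, which the common threshold of 1 TPM holds together, and the share in LADs is lowest between 10 and 100 TPM.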

How the data were processed

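Control testes were represented by 3 RNA-seq libraries, grouped by their titles, which name control testes. The genotype is the one given in the paper. The authors clipped adapters and estimated expected counts per gene with *Salmon* on the BDGP5 annotation. These were deposited without normalization, beside TPM values that the authors had from the same run. LAD positions (as start and end, unit other) were deposited by the authors on dm3 from merged replicates, and files of the knockdown were not used.

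Means, SDs and shares were computed in Python 3.11.15 with pandas 2.3.3 and scipy 1.17.1. A gene was taken as expressed over a mean of 1 TPM. Expected counts were rounded, genes with at least 10 reads in at least 3 libraries were kept, and dispersion was estimated with edgeR 4.0.16 in R 4.3.3, with DESeq2 1.42.0 size factors as an alternative. Log2 ratios used a pseudocount of 1 TPM. Shares, the X to autosome ratio and the dispersion were tested on simulated data, and the log2 ratios between libraries were not. Symbols and chromosomes came from RefSeq's Release 6 table for 13529 of the 13776 identifiers, whose positions served only to order neighbouring genes. Classes (28) and lists (20) rest on symbols. Members and lists were chosen with earlier results of these data known. The glue, Eig71E, Bomanin, odorant binding protein, cyclin, and yolk and chorion families and the paralog pairs were collected after their values were seen. Genes were named by rank (30 highest, 3 highest per class and chromosome, 10 by CV over 10 TPM) or as list members. Intervals cover counting error only. No column without a sample was used. Sequences are not given, as no sequence table was used here.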

Additional observations from a re-analysis of the deposited data

How the results depend on the processing

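No value was tested, so that only sizes are compared over the 23 changes of processing, all of which were run. The number of expressed genes stayed within 1.5 times of 10187. By reads in place of TPM, the 100 highest genes held 12.8%, CG genes 36.5%, ribosomal proteins 2.33%, sperm proteins 3.49%, the mitochondrial genome 2.62% and the X 9.85%. Without mitochondrial and non-coding genes in the total, the 100 highest genes held 20.6% and CG genes 47.8%. The X to autosome ratio was 0.728, 0.744 and 0.782 with genes over 0, 5 and 10 TPM and 0.651 to 0.664 when 1 library was left out. The biological coefficient of variation ranged from 7.48% to 15.1% when 1 library was left out. The highest over the lowest library of the glue genes was 47.6, and 1.53 to 47.6 when 1 library was left out, with the lowest value without library 1 and 31.2 without library 3. LAD shares of the 4 level groups stayed within their intervals in SpG and SpCs, but the share of all genes in LADs of SpG went from 30.7% to 32.9% when a start within 300 bp counted as inside. Depth limits genes under 1 TPM, and the 3 libraries limit all SDs. No paired analysis was possible because there is 1 group.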
